A study of Rattus norvegicus with 9 samples.

Results

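Genes named for the motile cilium axoneme, the beating shaft of the cilia of airway cells, were examined in lungs of rats with metabolic syndrome (MetS) and control rats. Members were taken by name, from gene symbols that fit the families of axonemal dyneins (Dnah, Dnai, Dnal), dynein assembly factors (Dnaaf), tektins (Tekt), radial spoke heads (Rsph) and sperm-associated antigens (Spag), with Ccdc39, Ccdc40, Ccdc103, Ak7, Tppp3, Foxj1, Rfx2 and Rfx3. They were 51 of 14497 genes with a probe that carries 1 gene symbol. Each was read by 1 probe, that is, 1 transcript cluster of the array. The name rule uses no measured value, though the gene families were picked with earlier results of these data known. The rule also asks for Mcidas, Ccdc113 and Ccdc114, which are not analysed here under those names, and neither are the outer arm heavy chains Dnah5 and Dnah9. The name rule also took genes that are not known as axonemal, among them Spag9, a scaffold of kinase signalling, Spag5, a protein of the mitotic spindle, and Spag11a and Spag11b, defensin-like genes of the epididymis in rat.

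Motile cilia are the beating hairs of the multiciliated cells that line the conducting airways of the lung. Their shaft, the axoneme, is a ring of microtubule doublets around a central pair, and rows of outer and inner dynein arms slide the doublets to bend it. Radial spokes and the central pair control the beat, coiled-coil rulers set where arms and spokes attach, and cytoplasmic assembly factors build the arms before transport. Foxj1 is the transcription factor known as the master regulator of this gene programme, and Rfx2 and Rfx3 are its partners, which bind a promoter element called the X-box.

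The MetS group held 3 Wistar rats, labelled male, that drank a 30% sucrose solution for 24 weeks from weaning. The control group held 4 Wistar rats, with no sex in the labels, that drank water over the same time. Chow was the same in both groups, and all rats were fasted for 7 hours before they were killed. MetS rat 1 and control rat 1 each had a second, technical array, so that 9 arrays stood for 7 animals, and the 2 arrays of a rat were averaged. Values are log2 expression, ± is the SD over the rats of a group (n = 3 for MetS and n = 4 for control), and a difference is MetS minus control. The labels do not tie the tissue to a region or lobe. The lung was read in bulk, so that a change in the share of ciliated cells and a change in RNA per cell cannot be told apart.

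Over all 28826 probes the array medians lay between 7.64 and 7.69, and the spread of the values differed between the rats. Taken over the whole array, the SD came to 1.93, 1.90 and 1.88 in MetS rats 1 to 3, against 1.85, 1.77, 1.76 and 1.88 in control rats 1 to 4. Dim probes, those at or below 6.48, the 25th percentile of the probe means, had a median difference of -0.12, and the brighter ones had 0.04. Deposited values ran from 2.69 to 14.16, and the surfactant gene Sftpa1, which defines alveolar lung tissue, averaged 13.74 in MetS and 13.70 in control lungs. Tppp3, a tubulin-binding protein used as a marker of ciliated cells, read 12.47, 12.39 and 12.25 in MetS lungs (mean 12.37 ± 0.11), against 12.40, 12.39, 12.39 and 12.14 in control lungs (mean 12.33 ± 0.13).

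In the regulators the groups were close. Foxj1 read 8.53, 8.63 and 8.57 in MetS lungs, against 8.61, 8.69, 8.57 and 8.43 in control lungs. The 3 MetS values lay within the range of the controls, and the difference was 0.00 with a 95% interval from -0.18 to 0.18. Rfx2 read 8.38, 8.36 and 8.32 in MetS lungs (mean 8.35 ± 0.03), against 8.45, 8.38, 8.30 and 8.26 in control lungs (mean 8.34 ± 0.08), with an interval of the difference from -0.15 to 0.16. Rfx3 read 9.12, 9.08 and 8.98 in MetS lungs (mean 9.06 ± 0.07), against 9.04, 8.91, 8.95 and 8.98 in control lungs (mean 8.97 ± 0.05), and its groups overlapped. None of the 3 passed the test, with limma adjusted p values over all probes of 0.991 for Foxj1, 0.973 for Rfx2 and 0.522 for Rfx3.

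Because Rfx factors act through the X-box, the RefSeq promoters of the members (assembly GRCr8, 250 bases before to 50 after a gene's annotated start) were searched for it. Promoters were held for 40 of the 51 members. The 6-letter element GTTGCC is 1 arm of an X-box and not a whole X-box. On either strand, it was in 15 of these 40 (37.5%) and in 13 of 35 other motile cilium genes with a promoter (37.1%). It was in 13.1% of 27457 genes of the whole table. A paired X-box, written as GTTNCC, 1 to 3 bases and GGNAAC on either strand, and able to overlap the shorter element, was in 1 of the 40 (Dnaaf6), in 2 of the 35 (5.71%) and in 0.885% of all genes. The forkhead letters GTAAACA, on either strand, were in 2 of the 40 (5%), in 4 of the 35 (11.4%) and in 4.13% of all genes. A match is a description of these letters and does not show binding. The 4 stretches printed here come from the core of 24 structural and assembly genes defined further on, and are those with the element whose r with the core mean was highest. Of 20 core genes with a promoter, 6 (30%) held the element, and 0 held the forkhead letters or the paired X-box as spelled above. Looser spellings of the paired X-box were not searched, so the 0 does not show that these promoters lack one. Tekt1, Dnah2 and Dnai2, outside that core for their lower means, held the element too. Ccdc39, Dnah7, Ak7 and Dnah12, with r from 0.94 to 0.97, did not hold it. Capitals mark GTTGCC or its reverse complement GGCAAC.

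Dnah10: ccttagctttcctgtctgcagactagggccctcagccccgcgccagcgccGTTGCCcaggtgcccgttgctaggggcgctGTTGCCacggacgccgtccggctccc
Spag6l: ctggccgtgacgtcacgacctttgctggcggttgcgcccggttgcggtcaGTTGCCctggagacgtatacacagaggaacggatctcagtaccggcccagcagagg
Tekt4: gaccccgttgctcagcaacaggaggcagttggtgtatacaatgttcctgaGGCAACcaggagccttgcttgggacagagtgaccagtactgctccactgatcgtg
Spag8: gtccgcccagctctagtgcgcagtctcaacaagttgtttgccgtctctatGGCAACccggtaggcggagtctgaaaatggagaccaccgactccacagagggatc

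The stretch of Dnah10, an inner arm heavy chain, is chr12:37607765-37607870 on the minus strand of GRCr8 and holds the element at 2 places. That of Spag6l, a central pair gene, is chr11:97677726-97677831 on the plus strand. That of Tekt4, a tektin, is chr10:14992229-14992333 on the plus strand, and that of Spag8, a protein of the microtubule lumen, is chr5:62699615-62699719 on the minus strand. The element begins at position -12 in Dnah10 (the first of its copies), at -64 in Spag6l and at -5 in both Tekt4 and Spag8, with the annotated start counted as 0.

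Between the groups no member passed the test. With limma and Benjamini-Hochberg adjustment over all probes, 0 of 51 members and 0 of 28826 probes (0%) came under 0.05. Spag1 came nearest among the members, at an adjusted p of 0.329. The differences were small and mostly in 1 direction: 44 members had a higher mean in MetS (86.3%), against 53.3% of all probes, and 7 a lower one. The median difference of the members was 0.12, against 0.01 over all probes and 0.04 over the brighter ones. At an unadjusted p under 0.05, 2 members were higher, 3.92% of them against a background of 3.82%, and 1 was lower, 1.96% against a background of 9.91%. The rats of the groups did not overlap for 3 members that were higher (background 4.88%) and 2 that were lower (background 6.84%). These shares were near or below the background of all probes. Dim probes made up 1765 of the 2857 probes lower at an unadjusted p under 0.05. Of 21619 brighter probes, 958 were higher and 1092 lower at that limit. Without overlap of the rats, 1284 of these brighter probes were higher and 694 lower. The share of members with a higher mean was above the background, but members share rats and no test was made over them. Leaving out MetS rat 1 or MetS rat 2 brought both unadjusted counts to 0, and leaving out control rat 1 gave 5 higher and 1 lower. Without MetS rat 2 the median difference was 0.04 and 40 members were higher. With the SD of each rat's values as a covariate it was 0.07, with 41 higher.

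**Figure D1:**
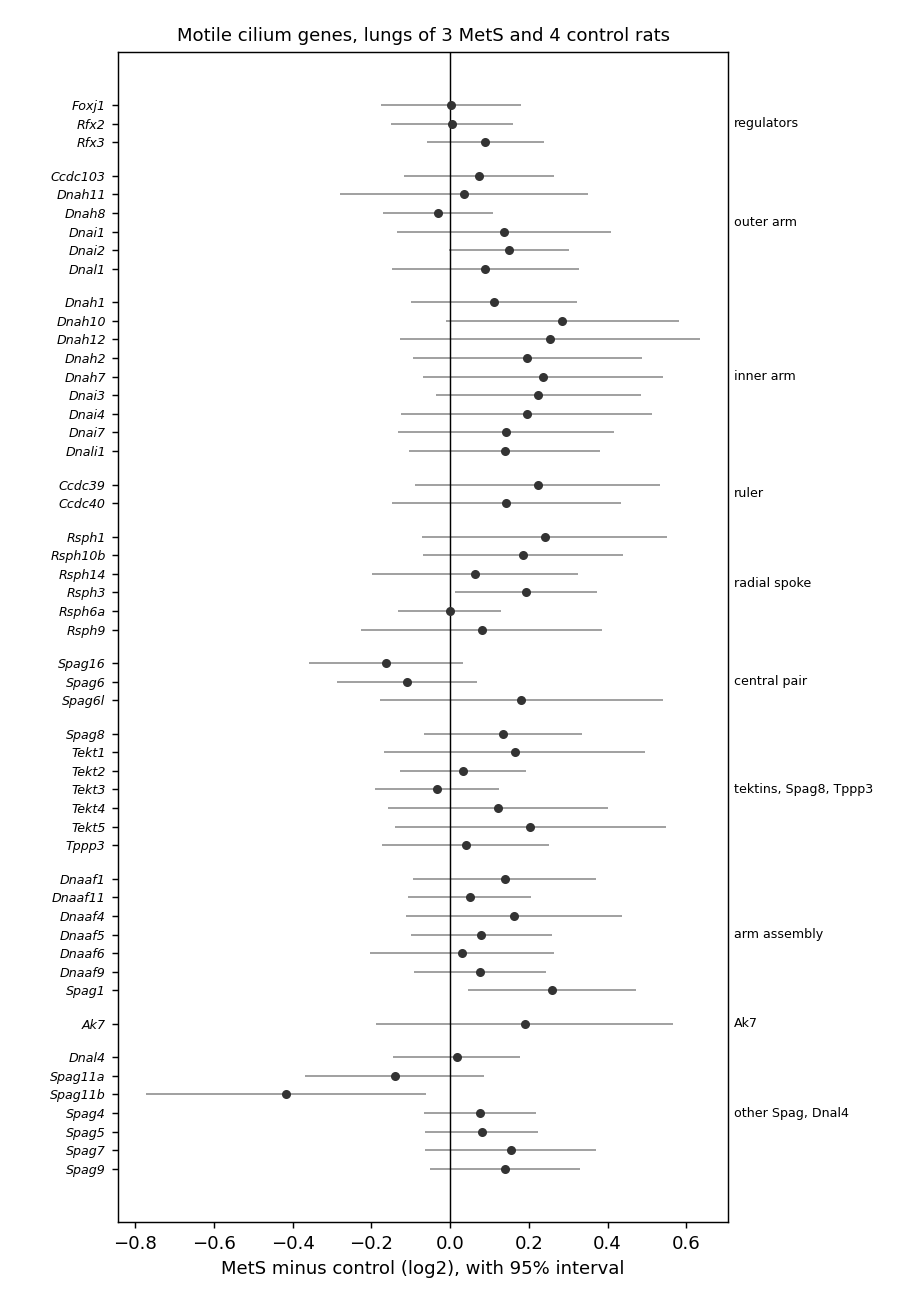
Difference between MetS and control lungs (log2, horizontal axis) for the 51 members, grouped by role down the page; points are limma estimates and bars their 95% intervals (n = 3 and 4 rats). Most points lie right of 0, between -0.42 for Spag11b and 0.29 for Dnah10, and no member had an adjusted p under 0.05.

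The 7 members with a lower mean in MetS were Spag6, Spag16, Spag11a, Spag11b, Dnah8, Tekt3 and Rsph6a. The 5 members at or below the dim limit of 6.48 (Spag6, Spag16, Spag11a, Spag11b and Dnah8) were all among them, where 75.8% of all dim probes had a lower mean. Their median difference was -0.14, beside the -0.12 of all dim probes. Of the 46 members above that limit, 44 had a higher mean (95.7%), against 63.0% of all brighter probes. Spag11b, the 1 member lower at an unadjusted p under 0.05, read 5.62, 5.54 and 5.86 in MetS lungs, against 5.91, 6.15, 6.43 and 5.88 in control lungs. MetS rat 3 lay just under control rat 4, and control rats 2 and 3, whose values had the narrowest spread, were the highest. Its difference of -0.42 (SE 0.15, limma adjusted p = 0.333) became -0.07 with the SD as a covariate, -0.22 without controls 2 and 3 and -0.20 after the arrays were quantile normalized again.

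All 9 inner arm genes had a higher mean in MetS, by between 0.11 for Dnah1 and 0.29 for Dnah10, with a median of 0.20, and none passed. For this and the later roles, the share of all brighter probes with a higher mean was 63.0%. Dnah12, a heavy chain, read 9.27, 9.73 and 9.33 in MetS lungs, against 9.45, 9.33, 8.93 and 9.04 in control lungs. MetS rat 2 was the highest and control rat 3 the lowest, while MetS rats 1 and 3 lay among the controls. The difference of 0.25 had an interval from -0.13 to 0.64 (limma adjusted p = 0.492). Dnah10 read 7.86, 8.08 and 7.71 in MetS lungs, against 7.74, 7.74, 7.37 and 7.53 in control lungs. Its groups overlapped through MetS rat 3, and its 1.22-fold difference was the widest of the higher ones (limma adjusted p = 0.374). Dnai3, an intermediate chain, read 9.41, 9.71 and 9.54 in MetS lungs (mean 9.55 ± 0.15), against 9.36, 9.54, 9.22 and 9.19 in control lungs (mean 9.33 ± 0.16) (limma adjusted p = 0.405). Dnah7, Dnah2 and Dnai4 differed by 0.24, 0.20 and 0.19. The remaining inner arm genes Dnai7, Dnali1 and Dnah1 differed by 0.14, 0.14 and 0.11. MetS rat 2 was the highest for all 9, and control rat 3 or 4 the lowest.

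Of 6 outer arm genes, 5 had a higher mean in MetS, with a median difference of 0.08. Dnai1, the intermediate chain often mutated in primary ciliary dyskinesia in humans, read 8.16, 8.28 and 7.92 in MetS lungs, against 8.16, 8.02, 7.95 and 7.80 in control lungs. The groups overlapped over most of their range, and the interval of the difference ran from -0.13 to 0.41. Dnai2, its partner chain, read 6.72, 6.84 and 6.66 in MetS lungs, against 6.57, 6.64, 6.55 and 6.60 in control lungs. The Dnai2 groups did not overlap, though control rat 2 came just under MetS rat 3, and its difference of 0.15 did not pass (limma adjusted p = 0.367). Dnah11, an outer arm heavy chain, read 8.95, 8.92 and 8.60 in MetS lungs (mean 8.82 ± 0.19), against 9.07, 8.78, 8.62 and 8.69 in control lungs (mean 8.79 ± 0.20). Dnal1, a light chain, and Ccdc103, an arm attachment factor, differed by 0.09 and 0.07, and Dnah8, a heavy chain of sperm flagella, by -0.03.

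The rulers Ccdc39 and Ccdc40 both had higher means in MetS. Ccdc39 read 7.45, 7.66 and 7.31 in MetS lungs, against 7.46, 7.38, 7.01 and 7.15 in control lungs. Again MetS rat 2 was on top and control rats 3 and 4 at the bottom, and control rat 1 was close to MetS rat 1. The difference was 0.22 (95% interval -0.09 to 0.53, limma adjusted p = 0.468). Ccdc40 read 8.05, 8.45 and 8.08 in MetS lungs (mean 8.19 ± 0.22), against 8.15, 8.18, 8.01 and 7.87 in control lungs (mean 8.05 ± 0.14) (limma adjusted p = 0.597).

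Among 6 radial spoke genes 5 had a higher mean in MetS, and Rsph6a, a sperm form, differed by -0.00. Rsph3, a spoke stalk protein, was 1 of the 2 members higher at an unadjusted p under 0.05. It read 8.63, 8.74 and 8.62 in MetS lungs, against 8.60, 8.47, 8.34 and 8.47 in control lungs. Its groups did not overlap, though control rat 1 came just under MetS rat 3. The difference was 0.19 ± 0.08 (SE, limma adjusted p = 0.349), and it was 0.11 with the SD as a covariate. Rsph10b read 8.47, 8.80 and 8.59 in MetS lungs (mean 8.62 ± 0.17), against 8.58, 8.46, 8.46 and 8.25 in control lungs (mean 8.44 ± 0.14), and Rsph1, Rsph9 and Rsph14 differed by 0.24, 0.08 and 0.06 with overlapping groups.

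The central pair genes went both ways. Spag6l read 9.38, 9.89 and 9.38 in MetS lungs, against 9.59, 9.42, 9.22 and 9.24 in control lungs. MetS rat 2 stood alone at the top, and MetS rats 1 and 3 were below control rats 1 and 2. Its close relative Spag6 averaged 5.72 in MetS and 5.83 in control lungs, on a dim probe, and cross-reading between these copies was not tested. Spag16 read 6.18, 6.32 and 6.24 in MetS lungs (mean 6.25 ± 0.07), against 6.37, 6.32, 6.59 and 6.35 in control lungs (mean 6.41 ± 0.12), a difference of -0.16 that became 0.02 after quantile normalization. Among tektins, Spag8 and Tppp3, 6 of 7 had a higher mean in MetS. Tekt5, known from sperm flagella in rodents, read 9.37, 9.01 and 8.89 in MetS lungs, against 8.66, 8.81, 8.99 and 9.09 in control lungs. Here MetS rat 1 was the highest and control rat 1 the lowest, an order unlike that of the dynein genes. Spag8 read 7.84, 8.02 and 7.90 in MetS lungs (mean 7.92 ± 0.09), against 7.96, 7.69, 7.71 and 7.78 in control lungs (mean 7.78 ± 0.12) (limma adjusted p = 0.489). Tekt1, Tekt4 and Tekt2 differed by 0.16, 0.12 and 0.03, and Tekt3 by -0.03.

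All 7 assembly factors had a higher mean in MetS, with a median difference of 0.08. Spag1, a cytoplasmic factor for building dynein arms, read 7.50, 7.41 and 7.36 in MetS lungs, against 7.19, 7.15, 6.98 and 7.33 in control lungs. The groups did not overlap, with control rat 4 just under MetS rat 3. This was a 1.20-fold difference of 0.26 ± 0.09 (SE, limma adjusted p = 0.329), with an unadjusted p under 0.05. It was 0.06 with the SD as a covariate and 0.16 without controls 2 and 3. Dnaaf5 read 8.56, 8.49 and 8.45 in MetS lungs (mean 8.50 ± 0.06), against 8.52, 8.40, 8.28 and 8.49 in control lungs (mean 8.42 ± 0.11). Dnaaf9, a factor of the same group, read 9.30, 9.41 and 9.31 in MetS lungs (mean 9.34 ± 0.06), against 9.31, 9.31, 9.13 and 9.31 in control lungs (mean 9.27 ± 0.09). The groups of both overlapped, and control rat 3 was the lowest for each. Ak7, an adenylate kinase of motile cilia, read 8.46, 8.89 and 8.39 in MetS lungs (mean 8.58 ± 0.27), against 8.56, 8.61, 8.22 and 8.19 in control lungs (mean 8.39 ± 0.22), where MetS rat 2 was again the highest and control rat 4 the lowest. Dnaaf4, Dnaaf1, Dnaaf11 and Dnaaf6 differed by 0.16, 0.14, 0.05 and 0.03, with overlapping groups. Among the other name matches, Spag9 read 10.01, 9.97 and 10.20 in MetS lungs (mean 10.06 ± 0.12), against 9.90, 9.87, 9.86 and 10.04 in control lungs (mean 9.92 ± 0.08). Spag7 read 8.27, 8.31 and 8.11 in MetS lungs (mean 8.23 ± 0.11), against 8.20, 7.91, 8.03 and 8.17 in control lungs (mean 8.08 ± 0.13). Control rat 4 was above MetS rats 1 and 2 for Spag9 and above MetS rat 3 for Spag7.

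**Figure D2:**
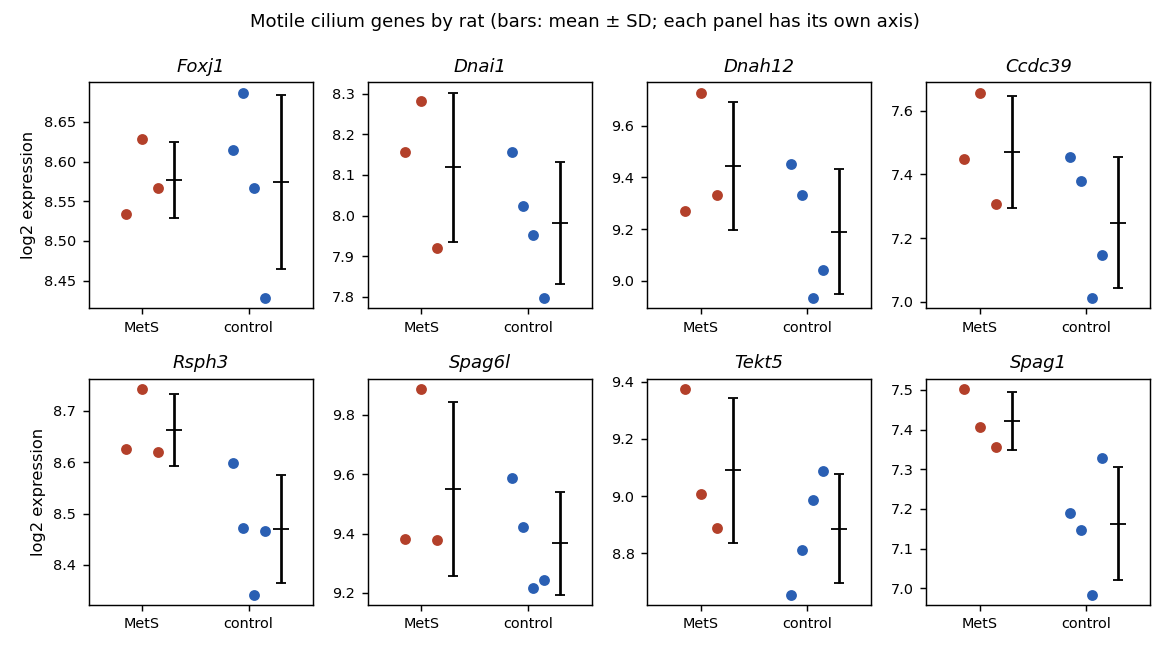
Log2 expression of 8 members in each rat, MetS left of control, with mean ± SD beside the points (n = 3 and 4). Foxj1 overlaps fully, Rsph3 and Spag1 do not overlap, and MetS rat 2 is the highest point for Dnai1, Dnah12, Ccdc39, Rsph3 and Spag6l.

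Single rats stood high or low for many axoneme genes at once. A core of 24 members was formed from the 7 structural and assembly roles, with a mean above the median of all probe means (7.65). Centred on each gene's mean over the 7 rats, the core averaged 0.06, 0.21 and -0.03 in MetS rats 1 to 3, against 0.05, -0.01, -0.14 and -0.13 in control rats 1 to 4. MetS rat 2 had the highest value for 16 of the 24 genes, and control rats 3 and 4 had the lowest for 9 and 10. MetS rats 1 and 3 were close to control rats 1 and 2. The spread of the arrays was also narrowest in control rat 3 and widest in MetS rats 1 and 2, while control rat 4 had about the spread of MetS rat 3. All 24 genes had a higher mean in MetS, against 63.0% of all brighter probes, with a median difference of 0.14. With the SD as a covariate 20 of the 24 did, against 11235 of 21619 brighter probes.

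**Figure D3:**
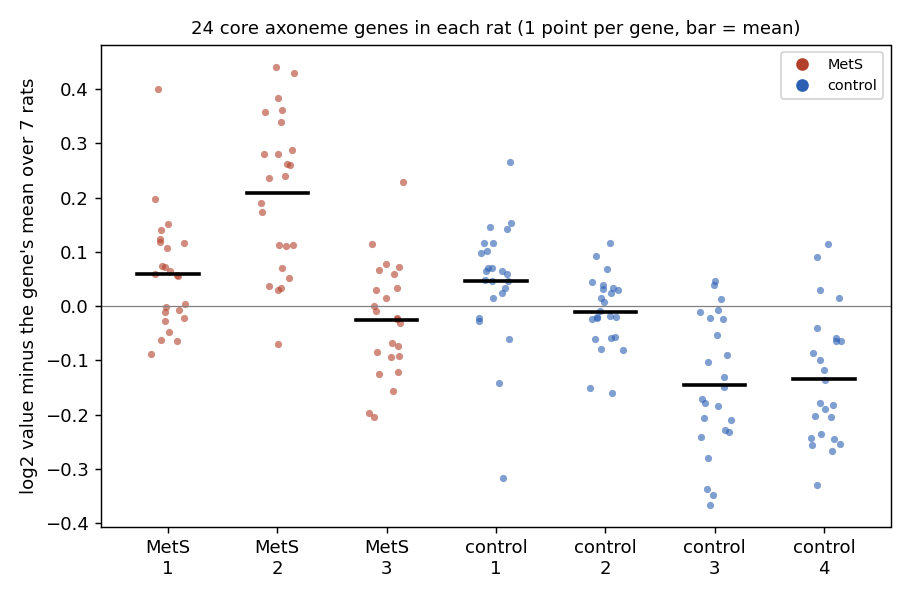
Log2 value minus the gene's mean over the 7 rats (vertical axis) for the 24 core members in each rat, 1 point per gene, black bars showing the mean. MetS rat 2 averages 0.21, and control rats 3 and 4 average -0.14 and -0.13.

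Between the 2 arrays of a rat, the core genes differed by a median of 0.02 in MetS rat 1 and 0.07 in control rat 1 in absolute terms, while their median SD between rats of a group was 0.17. The widest technical difference of any member was 0.27, for Spag6 in MetS rat 1 and Tekt3 in control rat 1. MetS rat 2 and control rats 3 and 4 had 1 array each, so that their own technical spread was not measured.

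Each member was then correlated, over the 7 rats, with the mean of the other core genes. These Pearson r values describe 7 rats whose arrays share normalization and spread, and they carry no p. The median r of the 24 core genes was 0.81, and 13 of them had an r above 0.8. The inner arm genes had r from 0.79 to 0.96, with a median of 0.91. Ccdc39 (0.97), Ak7 (0.94), Dnali1 (0.94), Tekt1 (0.92) and Spag6l (0.93) had high values too. The regulators had an r of 0.51 for Foxj1, 0.62 for Rfx2 and 0.67 for Rfx3. Within the core, Tppp3 had 0.46, Dnal1 0.20, Dnaaf4 0.12 and Tekt5 -0.06. Outside it Spag9 had 0.00, and the dim Spag6 and Spag11b both had -0.76.

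Genes of motile cilia outside the name rule were set against the core mean as well. For 40 other genes of motile cilia, those measured of 89 listed from the Cfap, Drc, Odad and other families, the median r with the core mean was 0.77, and 17 of them (42.5%) had an r above 0.8. Over all 14446 genes that are not members the median was 0.13, and 2.38% had an r above 0.8. Sntn, which codes for sentan of the ciliary tip, read 7.26, 7.53 and 7.26 in MetS lungs, against 7.40, 7.20, 7.01 and 7.09 in control lungs. Zmynd10, an arm assembly factor, read 8.61, 8.92 and 8.55 in MetS lungs, against 8.77, 8.58, 8.25 and 8.52 in control lungs. In both, MetS rat 2 was the highest, control rat 1 came next and control rat 3 was the lowest. Of the 40, 34 had a higher mean in MetS, against 53.3% of all probes, and 0 passed the test. Iqub, an axonemal gene, averaged 8.38 in MetS and 8.04 in control lungs (limma adjusted p = 0.326), and Nme8, a dim probe, averaged 5.11 in MetS and 5.80 in control lungs. The difference of Nme8 was -0.69 and became -0.08 with the SD as a covariate.

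With deviations taken from each group's own mean, which removes the group difference, 10 of the 24 core genes (41.7%) had an r above 0.8, against 1.83% of all other genes. The median r was then 0.75 for the core and 0.73 for the 40 other cilium genes. Without MetS rat 2 the count was 6 of 24 (25%), with a median r of 0.67, and 12 of the 40 other cilium genes (30%) were above 0.8, against 3.18% of all other genes. When any other rat was left out, between 12 and 14 of the 24 were above 0.8, and the share of all other genes ran from 2.47% without control rat 3 to 7.44% without control rat 4.

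The 10 genes outside the members whose values were most like the core mean had r between 0.96 and 0.98 over the 7 rats. The closest was Ribc2, a protein of the axonemal microtubule lumen, at 7.25, 7.40 and 7.18 in MetS lungs, against 7.23, 7.19, 7.11 and 7.05 in control lungs. It was followed by Dync2h1, the heavy chain of the motor for return transport in cilia, the kinase gene Mknk2, and Ift172, an intraflagellar transport gene. Tnxa-ps1, Ccdc190, the kinase gene Rps6ka4, Lrrc46, Spata18 and Znfx1 completed them. Odad1, the current name of Ccdc114 and an outer arm docking gene, stood at place 15 with an r of 0.95 and was picked out after its value was seen. Of the 100 most alike genes, 9 were from the list of 40.

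**Figure D4:**
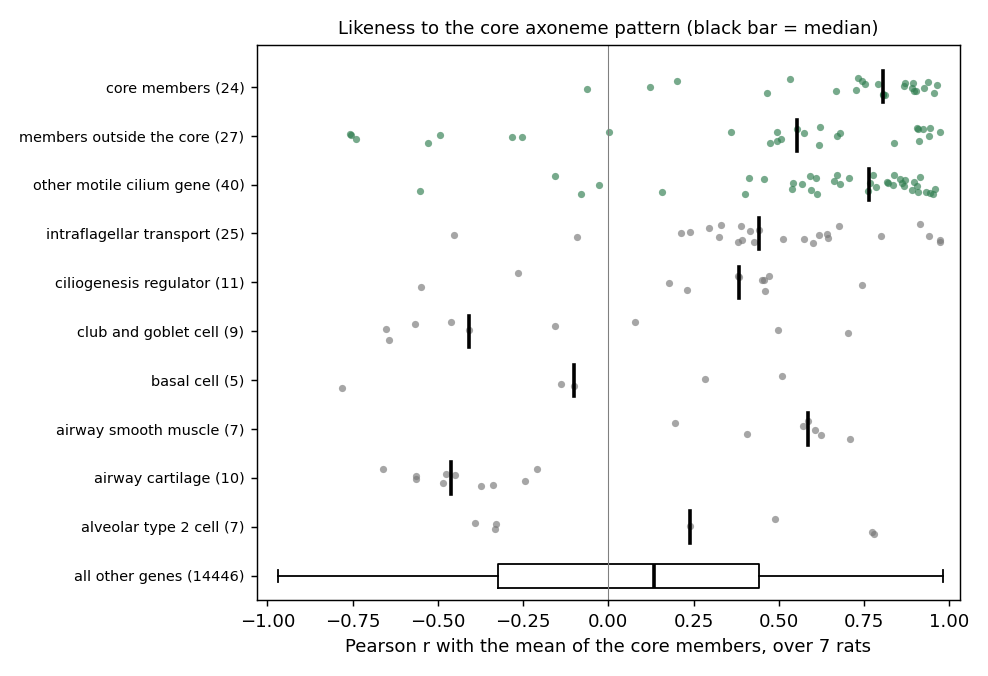
Pearson r over the 7 rats between each gene and the mean of the 24 core members (horizontal axis), by list, 1 point per gene and a black bar at the median; the box shows all 14446 genes outside the members with its quartiles and full range. The medians of core members (0.81) and other motile cilium genes (0.77) lie far right. Those of club and goblet cell genes (-0.41) and airway cartilage genes (-0.46) lie left of 0.

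Other parts of the cilium and other cells of the airway did not all share this order. The intraflagellar transport genes, 25 measured of 30 listed, serve primary cilia of many cells as well. Of these 25, 24 had a higher mean in MetS, against 53.3% of all probes. At an unadjusted p under 0.05, 5 were higher, against a background of 3.82%, and 0 passed. Both shares were above the background, but these genes share rats and no test was made over them. Their median r with the core mean was 0.44 (0.14 with deviations from each group's mean). Their median difference of 0.14 became 0.02 with the SD as a covariate, with 14 of the 25 higher. Kif3a, a motor subunit, averaged 8.07 in MetS and 7.76 in control lungs (limma adjusted p = 0.333). It was among 7 of the 25 that were higher without overlap of the groups, against a background of 4.88%. Of 11 regulators of ciliogenesis such as Ccno, 0 passed, 9 had a higher mean in MetS and the median r was 0.38 (0.21 within groups). The 9 measured of 12 club and goblet cell genes, which mark the secretory cells beside the ciliated ones, had a median r of -0.41 (-0.16 within groups), and 7 had a lower mean in MetS with 0 past the test. Their median difference of -0.05 became 0.05 with the SD as a covariate. Their r ran from -0.65 to 0.70, and 6 of the 9 were below 0. Bpifa1 and Reg3g, both on dim probes, had -0.65 and -0.57. The highest r was that of Scgb3a2, at 0.70 (0.82 within groups). Scgb3a2 read 11.41 in MetS rat 2, the highest, and 10.46 in control rat 4, the lowest. The secretoglobin gene Scgb3a1 read 10.35, 10.29 and 9.90 in MetS lungs, against 11.70, 12.47, 11.44 and 10.27 in control lungs, a difference of -1.29 (limma adjusted p = 0.33, groups overlapping). That difference became -0.53 with the SD as a covariate and -0.81 without controls 2 and 3. The r of Scgb3a1 with the core mean was -0.16, but 0.54 within groups. Control rat 4, low for the cilium genes, was low for Scgb3a1 too, but control rat 3 was not, and MetS rat 2 was not high.

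Markers of other tissue moved with single rats as well. The 7 smooth muscle genes had a median centred value of -0.09, 0.56 and 0.03 in MetS rats 1 to 3, against -0.12, -0.29, -0.19 and 0.04 in control rats 1 to 4, so that MetS rat 2 was the highest here too. Myh11, a smooth muscle myosin, read 9.42 in MetS rat 2 and between 8.43 and 8.88 in the other rats. The median r of the 7 with the core mean was 0.59 (0.41 within groups), and 0 of 7 passed. The 10 measured of 11 airway cartilage genes had a median r of -0.46 (-0.19 within groups), and MetS rat 2 had a median centred value of -0.04 for them. The 8 general airway epithelium genes, such as Epcam, had median centred values of 0.04, 0.05 and -0.01 in MetS rats 1 to 3, against 0.04, -0.03, -0.17 and 0.02 in control rats 1 to 4. By the median, control rat 3 was as low for them as for the core, where its median was -0.16. MetS rat 2 was at 0.05 for them and at 0.24 for the core. In control rat 3 the 8 genes did not agree. Epcam, Krt8, Krt18, Krt19 and Elf3 were lowest there, while Cdh1 lay among the other rats. Cldn4 was above all MetS rats in control rat 3, and Sox2 was highest there. The 12 germ cell genes, which mark sperm-forming cells, had a median centred value of -0.07 in MetS rat 2 and r below 0 for all 12. Many of their probes were dim. Their median r was -0.35 (-0.17 within groups), and within groups Sycp3 had 0.30 and Zpbp 0.27. The 6 measured genes of dividing cells all had a higher mean in MetS, with a median difference of 0.23 (0.14 with the SD as a covariate). At an unadjusted p under 0.05, 4 of the 6 were higher (background 3.82%). The groups did not overlap for 4 that were higher (background 4.88%), and 0 passed the adjusted test. No test was made over the list. Its median r with the core mean was 0.52 (0.19 within groups). The part of smooth muscle content or array spread in the order of the rats was not tested.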

How the data were processed

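Total RNA of rat lung, with an RNA integrity number of at least 6 and 50 ng per labelling, was hybridised to Affymetrix arrays, per the labels' protocols. The deposited values are log2 expression per transcript cluster, 1 column per array. As tools, the submitters' processing notes list R 2.11.0, limma and RMA, without saying which did what. Neither the region of the lung nor a genome build was stated in the labels.

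Arrays of 1 rat were averaged. MetS was compared with control by lmFit and eBayes (limma 3.58.1, R 4.3.3) over all 28826 probes, with Benjamini-Hochberg adjustment over all of them, a threshold of 0.05 and 7.28 degrees of freedom, 5 from the rats. Intervals cover 95%. The number of rats limits the precision. The fit was tested on simulated data, with independent probes and shifts wider than the difference of any member. That test does not cover differences as small as those of the members. Correlations and counts used Python 3.11.15, numpy 2.4.6, pandas 2.3.3, scipy 1.17.1 and matplotlib 3.10.9.

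Of the probes 15209 had 1 gene symbol, 306 several and 13311 none in the platform annotation. Current symbols came from RefSeq (GRCr8), which matched 50 of the 51 members. The dim limit was the 25th percentile of probe means.

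Members and lists were chosen with earlier results of these data known. Members named with values were all regulators, Tppp3, Ak7, the 2 of highest mean and the 1 of smallest p in each other role, and those with an unadjusted p under 0.05, 25 in all. Genes of other lists were taken from the 3 of smallest p in their list, except Sntn, Zmynd10, Sftpa1 and Scgb3a2. These exceptions, like the other members named, were chosen after their values were seen. Some settings were added after seeing the data, as the closing section says. The alternatives were other uses of the technical arrays, normalizations, filters, moderation, weights, covariates, blocks and thresholds, and leaving out rats.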

Additional observations from a re-analysis of the deposited data

Results flagged for a closer look

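Among the 4 controls, 26 results (the 25 members named by rule and the core mean) were examined for a rat far from the others, and chance sets apart about 1 in 20 such groups. Dnaaf9 read 9.13 in control rat 3, below 9.31 in each of the other 3, a gap of 0.961 of the controls' range. Tppp3 read 12.14 in control rat 4, below 12.39 to 12.40 in the others, a gap of 0.982 of the range. Both rats were also the lowest of the core mean, and the 3 MetS rats were too few for this comparison.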

How the results depend on the processing

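No member had an adjusted p under 0.05 in any limma fit. Under 0.1 there was none as reported, but Spag11b (0.0533) and Spag1 (0.0776) came under it in the replicate block, and Spag1 (0.0970) without control rat 4. The count higher at an unadjusted p under 0.05, 2 as reported, was 1 with the first array of each rat, 1 with the SD as covariate, 0 without controls 2 and 3, 4 after median centring and 0 to 5 when 1 rat was left out (0 without MetS rat 1 or 2, 1 without control rat 3 or 4, 4 without MetS rat 3, 5 without control rat 1). The count lower, 1 as reported, was 0 with the first array, after quantile normalization, with the SD, without controls 2 and 3 and with dim probes left out (which removes its gene), and 0 to 1 without 1 rat (0 without MetS rat 1, MetS rat 2 or control rat 2). The median difference ran from 0.042 without MetS rat 2 to 0.15 without MetS rat 3. The core genes with r above 0.8 numbered 6 to 14 without 1 rat, the 6 being without MetS rat 2. These settings for r were chosen after seeing the data. Of 448 differences of named members under the alternatives, 420 kept their direction and 28 turned, to values between -0.12 and 0.016. Turned after quantile normalization were Spag16 (0.016), Dnah11 (-0.024), Foxj1 (-0.050) and Rfx2 (-0.037). With the SD as covariate Dnaaf5 (-0.064), Spag7 (-0.022) and Dnah11 (-0.12) turned. Without controls 2 and 3 Dnaaf5 (-0.0045), Dnah11 (-0.054) and Rfx2 (-0.0026) turned. Array weights turned Dnah11 (-0.035) and Rfx2 (-0.020), the first array Rfx2 (-0.015) and the random block Foxj1 (-0.00053). Leaving out 1 rat gave -0.030 to 0.15 for Dnah11, -0.024 to 0.098 for Tppp3, -0.047 to 0.040 for Foxj1 and -0.023 to 0.040 for Rfx2. The causes were not tested. The replicate block turned Tppp3 (-0.024), Foxj1 (-0.047) and Rfx2 (-0.023) and left the counts at 2 higher and 1 lower, on the 6 rats that remain without control rat 4. Deviations of same-numbered rats correlated at 0.27, -0.12 and 0.34 over all probes. MetS rat 1 correlated best with control rat 1, and MetS rats 2 and 3 with another number. Deviations from the mean of so few rats depend on each other, so whether the numbers pair the rats cannot be told. Averaging the probes of a gene was not run, as each member has 1 probe.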
